A study of Homo sapiens with 6 samples.

Results

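The 9 genes described here make up the core of MHC class I antigen presentation, and they were taken by symbol from the 35130 gene names of each library. They are HLA-B, HLA-C and HLA-E, which encode class I heavy chains, B2M, which encodes their shared light chain, TAP1, TAP2 and TAPBP, which deliver and load peptides, ERAP1, which trims them, and NLRC5, which switches the pathway's genes on. The libraries are bulk RNA-seq of SK-N-BE(2), an established human neuroblastoma line with amplified MYCN whose labels give bone marrow as the tissue. Cells in dishes were exposed for 24 h to 1 µM NEN in 3 libraries or to the solvent DMSO in 3 libraries, described as biological replicates, all from the single line. NEN is abbreviated in the labels and is taken here, from published neuroblastoma work, as niclosamide ethanolamine, a mitochondrial uncoupler. The comparison asks which of these transcripts differed between NEN-treated and DMSO-treated cells.

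Class I molecules show fragments of the cell's own proteins to cytotoxic T cells and, through HLA-E and other heavy chains, set the threshold of natural killer cells. The proteasome and other peptidases cut proteins, the TAP1-TAP2 transporter moves the peptides into the endoplasmic reticulum, tapasin (TAPBP) and its partners fit them into a heavy chain paired with B2M, and ERAP1 trims their ends. NLRC5, brought to DNA by RFX5, its partners and NF-Y, activates the promoters of the heavy chains, B2M and TAP1, and interferon raises the same genes through IRF1 and related factors. Neuroblastoma cells, above all those with amplified MYCN, are known for low class I at the cell surface.

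Values are in TPM, a measure that corrects for transcript length, so that levels can be set side by side between genes. B2M was abundant, with 731.1 to 757.1 TPM in the NEN libraries and 696.9 to 739.6 TPM in the DMSO libraries. HLA-B, HLA-C, HLA-E and TAP1 lay under 1 TPM in all 6 libraries, and TAP2, TAPBP, ERAP1 and NLRC5 lay between 1.73 and 12.2 TPM. None of the 5 genes that could be tested passed the threshold of a limma adjusted p of 0.05, which 30.0% of the 12576 genes tested did. The promoters of the abundant light chain and of 3 genes listed near 0 are shown here because the same activators are known to act on them. They are RefSeq windows on GRCh38.p14 from 250 bases before to 50 bases after each gene's start, written 5′ to 3′, with the matches to 4 motifs in capitals.
B2M, chr15:44711267-44711566, plus strand: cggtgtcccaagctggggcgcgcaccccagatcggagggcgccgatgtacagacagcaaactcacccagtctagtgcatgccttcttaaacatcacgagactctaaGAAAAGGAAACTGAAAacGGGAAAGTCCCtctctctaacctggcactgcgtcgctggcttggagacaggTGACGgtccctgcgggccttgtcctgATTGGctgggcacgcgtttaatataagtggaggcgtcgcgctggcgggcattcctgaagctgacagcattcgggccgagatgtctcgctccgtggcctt
HLA-B, chr6:31357130-31357429, minus strand: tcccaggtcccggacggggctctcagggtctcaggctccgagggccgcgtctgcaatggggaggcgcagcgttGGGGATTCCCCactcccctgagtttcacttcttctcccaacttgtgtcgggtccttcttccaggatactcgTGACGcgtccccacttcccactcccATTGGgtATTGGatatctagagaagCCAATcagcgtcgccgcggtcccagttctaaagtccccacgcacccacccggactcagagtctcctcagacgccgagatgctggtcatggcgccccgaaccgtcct
HLA-C, chr6:31272043-31272342, minus strand: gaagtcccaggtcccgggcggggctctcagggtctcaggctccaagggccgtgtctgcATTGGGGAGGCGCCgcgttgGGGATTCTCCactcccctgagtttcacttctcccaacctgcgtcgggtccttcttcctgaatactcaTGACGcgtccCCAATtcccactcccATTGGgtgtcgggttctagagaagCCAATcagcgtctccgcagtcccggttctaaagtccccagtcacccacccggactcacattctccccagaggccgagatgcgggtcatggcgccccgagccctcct
TAP1, chr6:32853655-32853954, minus strand: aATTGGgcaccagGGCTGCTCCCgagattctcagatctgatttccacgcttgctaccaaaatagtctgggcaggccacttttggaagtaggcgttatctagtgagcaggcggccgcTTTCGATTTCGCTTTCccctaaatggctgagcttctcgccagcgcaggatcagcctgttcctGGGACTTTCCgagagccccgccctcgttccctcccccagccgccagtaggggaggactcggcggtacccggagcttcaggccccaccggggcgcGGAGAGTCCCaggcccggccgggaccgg

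The first motif was CCAAT, the box of NF-Y. The second was TGACG, the core of elements that CREB and ATF factors bind. The third was a pair of GAAA runs with any 2 bases between them, the letters of the interferon-stimulated response element. The last was GGGA followed after any 4 bases by CC, a loose NF-kappa B site. Both strands were searched, and matches may overlap, as do both GAAA pairs of B2M, both of TAP1 and both NF-kappa B matches of B2M and of HLA-B.

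Of 35116 RefSeq promoter windows, 34.6% hold CCAAT, 24.6% hold TGACG, 3.57% hold the GAAA pair and 25.6% hold the NF-kappa B letters. B2M, HLA-B and HLA-C each hold CCAAT as well as TGACG and the NF-kappa B letters. Counted from each gene's start, TGACG begins at -75 in B2M, -106 in HLA-B and -105 in HLA-C. A CCAAT match on the opposite strand begins downstream of it in each, at -49 in B2M, -81 in HLA-B and -80 in HLA-C. The GAAA pair was found in B2M, TAP1, TAP2, TAPBP and ERAP1, and not in these letters in HLA-B or HLA-C. HLA-E and NLRC5 are named without a window. A match describes letters and not a bound site, and the sequences are those of the reference genome and not of the alleles of SK-N-BE(2). Promoters with these letters in common thus stand before B2M, at 696.9 TPM or more in every library, and before HLA-B and HLA-C, listed under 1 TPM in every library.

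TPM keeps no record of read number, so depth is unknown and low values carry no counting interval. The listed names summed to 929054 to 929189 TPM in NEN libraries and 932109 to 933500 TPM in DMSO libraries, and between 17285 and 18041 names lay above 0 per library. No library stood apart, with correlations of log2(TPM + 1) of 0.978 to 0.980 among NEN libraries and 0.976 to 0.983 among DMSO libraries. All 10 neuroblastoma markers were detected, with summed levels of 4819 to 4960 TPM in NEN and 4236 to 4897 TPM in DMSO libraries. In limma 5 of the 10 rose and 1, not reported here by name, fell (30.0% of all genes tested were called). The risers were PHOX2A, HAND2, ISL1, TH and DBH, of which ISL1 lost its call on leaving out any library but DMSO replicate 2 (0.24 to 0.33). Of 14 markers of immune cells and class II presentation 13 lay under 1 TPM on average and HLA-DRA, HLA-DRB1 and CD3E were listed at 0 throughout; the summed level was 16.7 to 19.0 TPM in NEN and 8.08 to 12.02 TPM in DMSO libraries. CD68, a lysosomal protein made by many cells, accounted for most of that sum and rose by 0.89 ± 0.13 on the log2 scale. Of 9 stromal and endothelial markers, with a summed level of 26.8 to 32.9 TPM in NEN and 17.2 to 21.9 TPM in DMSO libraries, 4 were tested and PDGFRB, a growth factor receptor, rose to 22.0 ± 2.5 TPM, against 10.1 ± 2.1 TPM in DMSO cells. The part of these marker differences in the class I values was not tested. In bulk RNA, fewer cells of a type and less RNA per cell cannot be told apart.

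**Figure D1:**
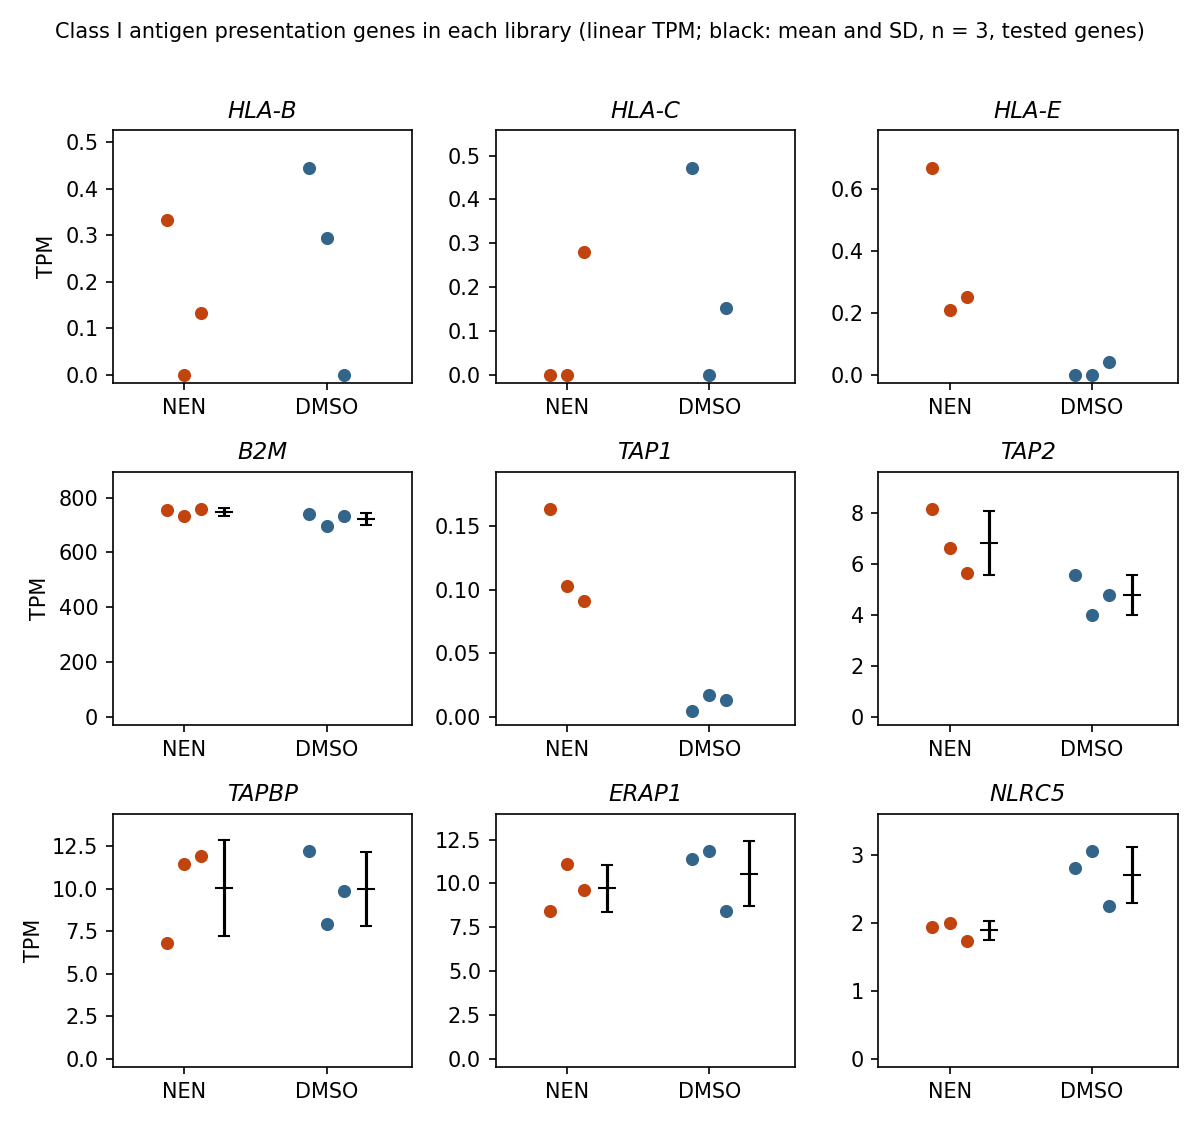
TPM of each class I gene on a linear axis that starts at 0, with 1 point per library, NEN left of DMSO, and mean and SD in black for the 5 tested genes (n = 3). B2M lies at 696.9 TPM or more in all 6 libraries, TAP2 is higher and NLRC5 lower in every NEN library than in any DMSO library, and HLA-B, HLA-C, HLA-E and TAP1 stay under 1 TPM.

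The heavy chain genes were listed at or near 0. HLA-B, a classical heavy chain, had 0.334, 0 and 0.133 TPM in NEN replicates 1 to 3, against 0.445, 0.294 and 0 TPM in DMSO replicates 1 to 3. HLA-C, the other classical heavy chain described here, had 0, 0 and 0.281 TPM in the NEN libraries, against 0.473, 0 and 0.154 TPM in the DMSO libraries. For both genes the groups overlapped, and each group held a library at 0. HLA-E, the non-classical heavy chain that is read by natural killer receptors, had 0.668, 0.210 and 0.252 TPM in the NEN libraries, against 0, 0 and 0.0416 TPM in the DMSO libraries. All 3 NEN values of HLA-E lay above the DMSO values. Summed, these heavy chains came to 1.00, 0.210 and 0.667 TPM in the NEN libraries and 0.918, 0.294 and 0.195 TPM in the DMSO libraries, beside 696.9 TPM or more of B2M in each.

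TAP1, one subunit of the peptide transporter, was listed at 0.163, 0.103 and 0.0914 TPM in the NEN libraries, against 0.00491, 0.0172 and 0.0129 TPM in the DMSO libraries. Its NEN values all lay above its DMSO values, at a level where the number of reads behind each is unknown. Of 9031 genes above 0 in at least 1 library and under 1 TPM on average, 9.23% had groups that did not overlap, and 3.84% of the 9031 were higher in NEN. HLA-E and TAP1 were the class I genes of that kind, out of 4. With no filter on low values, which brings 21607 genes into limma, HLA-E had an adjusted p = 0.106 and TAP1 an adjusted p = 0.101, and HLA-B and HLA-C had adjusted p-values of 0.749 and 0.654.

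Heavy chain genes are highly polymorphic and near-identical to each other, so reads of an allele that differs from the reference, or that match several heavy chains, may be lost or split, and their levels here are uncertain. The stretch of chromosome 6 that holds 6 of the 9 genes had other low entries too. Of 137 protein-coding genes matched between HLA-F and TAPBP in RefSeq order, 27 (19.7%) were listed at 0 in all 6 libraries and 57 (41.6%) reached a mean of 1 TPM, compared with 11.9% and 61.4% of 18864 other protein-coding genes. PPP1R11, a phosphatase regulator used by most cells and picked after its values were seen, was listed at 0 to 0.000508 TPM in every library. VARS2, which charges mitochondrial valine tRNA in all cells, had 0.246 to 0.667 TPM in NEN and 0.499 to 0.772 TPM in DMSO libraries. Others in the stretch were abundant: RPS18, a ribosomal protein gene, had 4492 to 4844 TPM in NEN and 3212 to 4172 TPM in DMSO libraries, and TUBB, a tubulin, 1405 to 1501 TPM in NEN and 1486 to 1826 TPM in DMSO libraries. A value of 0 for a class I gene is given here as a listing. Whether its transcript was absent or its reads were lost was not tested.

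**Figure D2:**
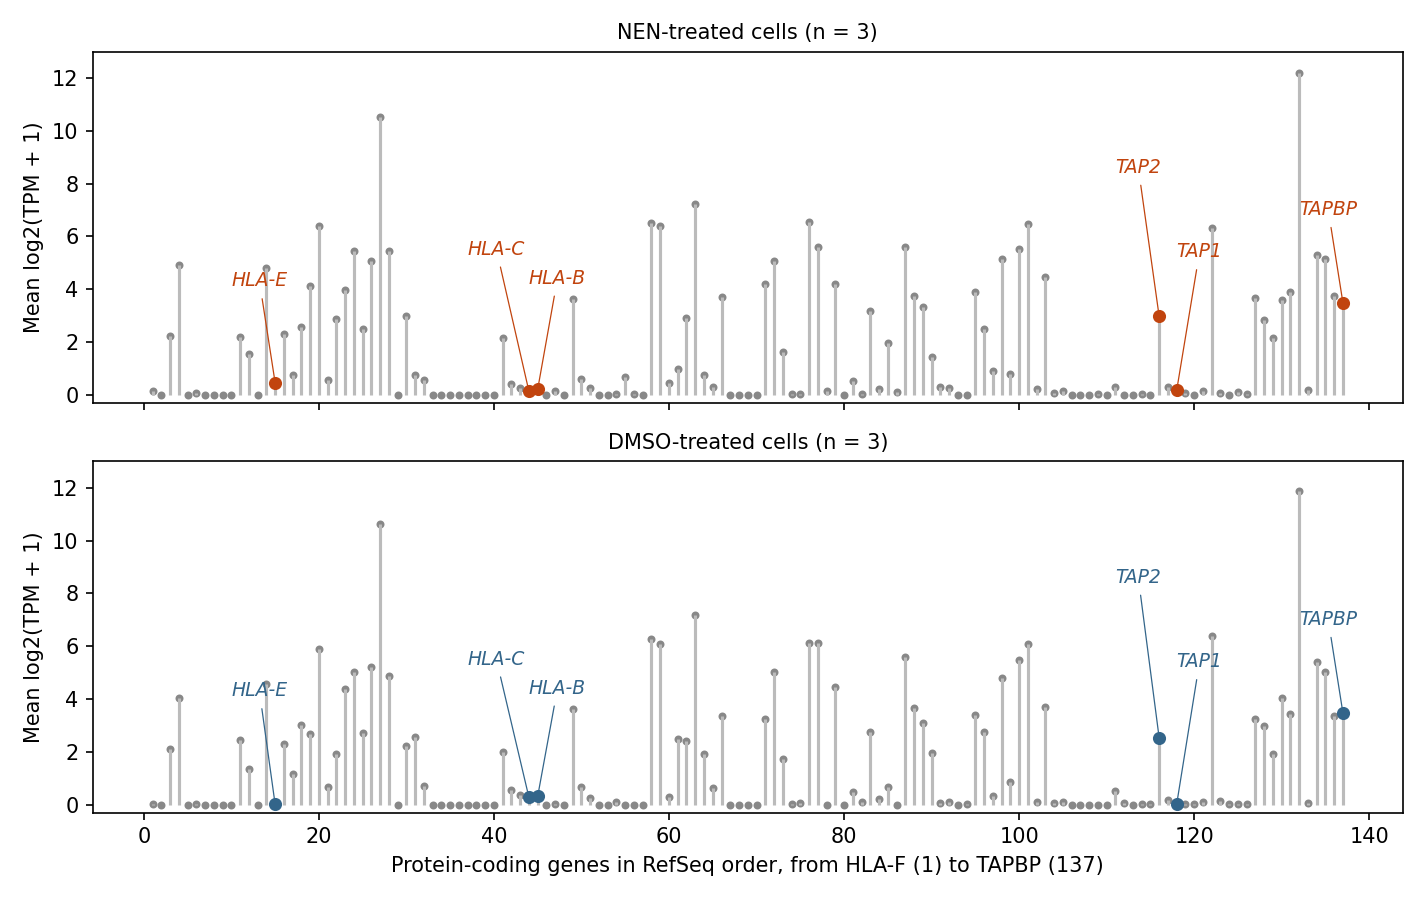
Mean log2(TPM + 1) of 137 protein-coding genes in RefSeq order from HLA-F to TAPBP, with NEN-treated cells above and DMSO-treated cells below (n = 3 each) and the class I genes in colour. HLA-E, HLA-C, HLA-B and TAP1 lie at or near 0 in both panels, TAP2 and TAPBP above them, and the highest points are RPS18 and TUBB.

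B2M, the light chain without which heavy chains do not reach the surface, had 754.0, 731.1 and 757.1 TPM in the NEN libraries, against 739.6, 696.9 and 731.2 TPM in the DMSO libraries. The groups overlapped, and B2M ranked between 169 and 176 from the top in NEN libraries and between 167 and 183 in DMSO libraries. Its mean was 747.4 ± 14.2 TPM in NEN and 722.6 ± 22.6 TPM in DMSO cells (SD, n = 3 each). The log2 fold change, NEN minus DMSO on log2(TPM + 1), was 0.05 ± 0.05 (SE; limma adjusted p = 0.479). Its 95% interval ran from -0.06 to 0.16, that is from 0.957 to 1.12 times the DMSO level, the narrowest of the 5.

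TAP2, the other subunit of the peptide transporter, had 8.14, 6.65 and 5.66 TPM in the NEN libraries, against 5.57, 3.98 and 4.77 TPM in the DMSO libraries. Every NEN value lay above every DMSO value, though NEN replicate 3 and DMSO replicate 1 differed by less than either group's SD. The means were 6.81 ± 1.25 TPM in NEN and 4.77 ± 0.80 TPM in DMSO cells. The log2 fold change of 0.43 ± 0.17 did not pass the threshold (limma adjusted p = 0.0999), and its 95% interval of 0.03 to 0.84 comes before adjustment over 12576 genes. Leaving out 1 library gave values from 0.31 without NEN replicate 1 to 0.54 without NEN replicate 3, with adjusted p between 0.0780 and 0.260. TAP2 was listed in every library at many times the level of TAP1, its partner in the transporter, whose values are uncertain as described.

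NLRC5, the class I transactivator, had 1.94, 1.99 and 1.73 TPM in the NEN libraries, against 2.80, 3.05 and 2.25 TPM in the DMSO libraries. Here every NEN value lay below every DMSO value. The means were 1.88 ± 0.14 TPM in NEN and 2.70 ± 0.41 TPM in DMSO cells. The log2 fold change was -0.35 ± 0.18 (limma adjusted p = 0.179), with a 95% interval from -0.78 to 0.07. At this low level the pseudocount of 1 weighs on the size: it was -0.49 with a pseudocount of 0.1 and -0.16 with a pseudocount of 5, without a call in either.

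TAPBP, which encodes tapasin, had 6.82, 11.4 and 11.95 TPM in the NEN libraries, against 12.2, 7.91 and 9.85 TPM in the DMSO libraries. NEN replicate 1 was the lowest of all 6 and DMSO replicate 1 the highest. The log2 fold change was -0.01 ± 0.23 (limma adjusted p = 0.987), and its 95% interval of -0.55 to 0.53 was the widest of the 5. ERAP1, the aminopeptidase that trims peptides in the endoplasmic reticulum, had 8.40, 11.1 and 9.64 TPM in the NEN libraries, against 11.4, 11.8 and 8.43 TPM in the DMSO libraries. The ERAP1 groups overlapped, with a log2 fold change of -0.10 ± 0.16 (limma adjusted p = 0.664; 95% interval -0.48 to 0.27).

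Of the 9 class I genes, 5 reached the minimum mean level of 1 TPM and 0 of these were called by limma, with 1, TAP2, at an unadjusted p under 0.05. Over all 12576 genes tested, 30.0% were called, 13.5% with NEN higher and 16.5% with NEN lower. The groups did not overlap for TAP2 and NLRC5 among the 5, 1 with NEN higher and 1 with NEN lower. Of all genes tested 46.8% had such groups, 21.8% with NEN higher and 25.0% with NEN lower. The median log2 fold change of the 5 was -0.01, against -0.02 over all genes tested. With 5 tested genes these shares are given as a description. The intervals of TAP2 and TAPBP include a rise of the size called for RFX5 (0.32), and those of NLRC5, TAPBP and ERAP1 include a fall of that size.

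By level, the order in NEN cells was B2M, TAPBP, ERAP1, TAP2 and NLRC5, and in DMSO cells B2M, ERAP1, TAPBP, TAP2 and NLRC5. TAPBP and ERAP1 overlapped in both groups, and TAP2 overlapped TAPBP in NEN cells. B2M exceeded TAPBP by 63.3 to 110.6 times in NEN libraries and by 60.5 to 88.1 times in DMSO libraries. TAP2 exceeded NLRC5 by 3.27 to 4.20 times in NEN libraries and by 1.30 to 2.12 times in DMSO libraries. These ranges could not overlap, because TAP2 was higher and NLRC5 lower in every NEN library than in any DMSO library. They therefore add nothing to the values given for both genes, neither of which was called. Among 7898 candidate genes with coding-type names and 10 TPM or more on average, the pattern over the 6 libraries most like the mean of the 5 tested genes was that of WARS2 (Pearson r = 0.976), RPL17 (0.974), NQO2 (0.967), RTN3 (0.943) and IAH1 (0.941). That mean pattern spanned only -0.09 to 0.13 on the log2 scale and did not separate the groups, and the libraries are the same for all genes. The 5 named are the highest of 7898 correlations over 6 libraries, where values of this size can arise by chance.

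**Figure D3:**
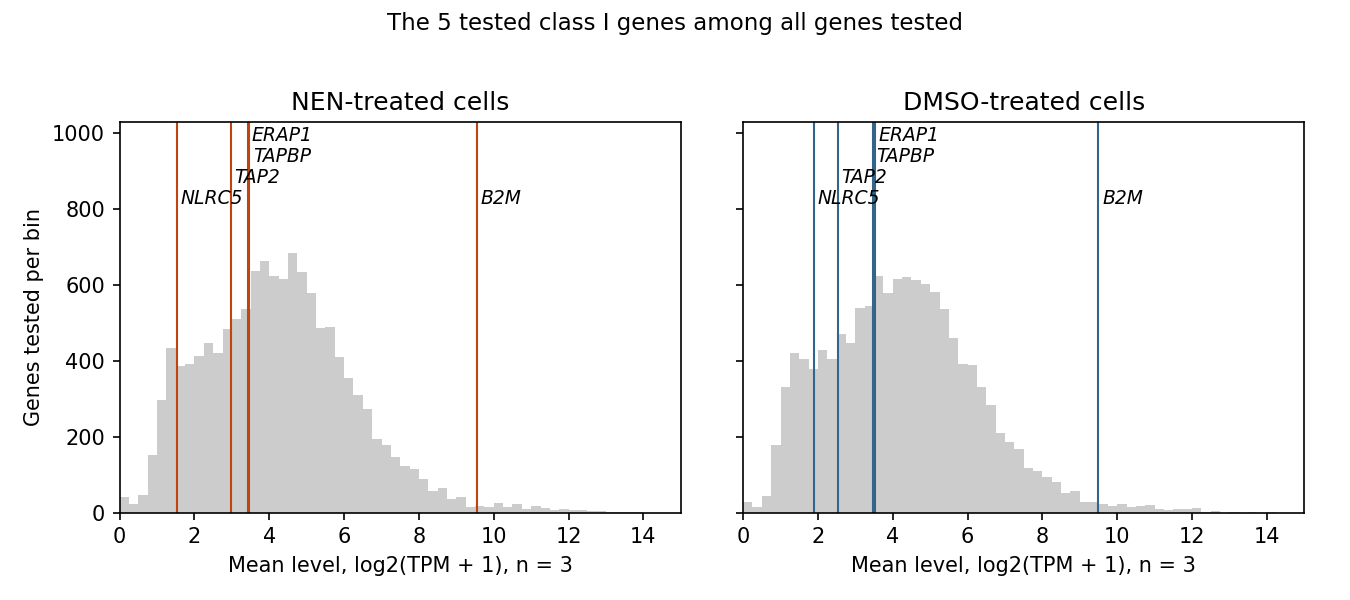
Histograms of the mean level, log2(TPM + 1), of the 12576 genes tested, for NEN-treated cells on the left and DMSO-treated cells on the right, with vertical lines at the 5 tested class I genes. B2M lies in the upper tail in both panels, and NLRC5, TAP2, TAPBP and ERAP1 lie left of the middle of the distribution.

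The other genes that fold and load class I molecules included some of the most abundant of the pathway. Of 12 listed genes 9 were tested, of which 1 rose and 2 fell (30.0% of all genes were called), with a median log2 fold change of -0.05. CALR, the lectin chaperone of the peptide-loading complex, had 744.1, 702.6 and 712.7 TPM in the NEN libraries, against 858.3, 854.1 and 898.3 TPM in the DMSO libraries. It fell by 0.27 ± 0.05 (limma adjusted p = 0.00650), with all NEN values below all DMSO values. UGGT1, which checks the folding of glycoproteins, fell to 30.7 ± 0.6 TPM in NEN cells, against 36.9 ± 1.8 TPM in DMSO cells (limma adjusted p = 0.0327), and PRKCSH, the beta subunit of glucosidase II, rose to 216.1 ± 14.6 TPM, against 182.0 ± 6.9 TPM (limma adjusted p = 0.0285). The call of UGGT1 was lost on leaving out any library but DMSO replicate 2 (-0.27 to -0.24), and that of PRKCSH without NEN replicate 1 or 3 or DMSO replicate 2 or 3 (0.22 to 0.25). HLA-G was listed at 0 throughout, HLA-F had 0, 0.0600 and 0.261 TPM in NEN and 0, 0.0257 and 0 TPM in DMSO libraries, and ERAP2, a second trimming peptidase, 0.391 to 0.705 TPM in NEN and 0.342 to 0.628 TPM in DMSO libraries.

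Of 12 genes that supply peptides, 10 were tested, and 1 rose and 3 fell (30.0% of all genes were called), with a median of -0.08. PSME3, the nuclear proteasome activator, had 90.6, 102.4 and 100.3 TPM in the NEN libraries, against 161.9, 152.0 and 159.9 TPM in the DMSO libraries. It fell by 0.69 ± 0.07 (limma adjusted p = 0.000696), in every NEN library below every DMSO library. PSME1, a subunit of the interferon-inducible activator, rose to 58.2 ± 4.4 TPM in NEN cells, against 48.3 ± 3.0 TPM in DMSO cells (limma adjusted p = 0.0469). TPP2, a peptidase that works after the proteasome, had 22.4 ± 3.0 TPM in NEN and 29.2 ± 2.1 TPM in DMSO cells (limma adjusted p = 0.0466), and THOP1, which destroys cytosolic peptides, had 144.4 ± 9.3 TPM in NEN and 166.5 ± 3.7 TPM in DMSO cells (limma adjusted p = 0.0426). These last 3 calls were each lost on leaving out most single libraries: PSME1 without any but DMSO replicate 1 (0.20 to 0.30), TPP2 without any but NEN replicate 1 (-0.42 to -0.27) and THOP1 without any but NEN replicate 2 (-0.22 to -0.15). PSMB8 and PSMB9, the immunoproteasome subunits encoded beside TAP1, had 0.0101 to 0.379 TPM in NEN and 0 to 0.242 TPM in DMSO libraries, while PSMB10, the immunoproteasome subunit encoded elsewhere, had 58.0 ± 4.3 TPM in NEN and 56.8 ± 2.8 TPM in DMSO cells.

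Of 20 genes that control class I transcription, 19 were tested, and 3 rose and 3 fell, with a median of 0.15. That count lies near the share of all genes tested that were called, 30.0%, and is given as a description. RFX5, the DNA-binding partner of NLRC5, had 63.8, 60.3 and 63.8 TPM in the NEN libraries, against 51.9, 50.4 and 47.6 TPM in the DMSO libraries, and rose by 0.32 ± 0.07 (limma adjusted p = 0.0104). IRF2, an interferon regulatory factor that binds class I promoters, had 19.6, 21.2 and 19.2 TPM in the NEN libraries, against 11.95, 12.8 and 14.3 TPM in the DMSO libraries, and rose by 0.58 ± 0.10 (limma adjusted p = 0.00585). In both genes all NEN values lay above all DMSO values.

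EZH2, EED and SUZ12, the core of the Polycomb methyltransferase that is known to silence class I genes in some tumours, all fell. EZH2 had 31.5, 29.2 and 29.1 TPM in the NEN libraries, against 48.5, 49.6 and 44.6 TPM in the DMSO libraries, a change of -0.65 ± 0.08 (limma adjusted p = 0.00140). SUZ12 fell by 0.48 ± 0.10 (limma adjusted p = 0.0134), and EED, named after its values were seen, by 0.92 ± 0.20 (limma adjusted p = 0.0148). The call of EED was lost without NEN replicate 2 (-0.82) or DMSO replicate 3 (-0.80). MYCN, whose high level is linked to low class I in neuroblastoma, was the third riser of the list at 0.33 ± 0.08 (limma adjusted p = 0.0169), a call lost without NEN replicate 1 (0.29).

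Other regulators named here did not pass the threshold. NFYA, a subunit of NF-Y, had 22.5 ± 0.7 TPM in NEN and 26.2 ± 0.6 TPM in DMSO cells (limma adjusted p = 0.0706). IRF1 had 5.10, 4.34 and 3.51 TPM in the NEN libraries, against 3.53, 2.50 and 3.08 TPM in the DMSO libraries (limma adjusted p = 0.144). Its NEN replicate 3 lay below DMSO replicate 1, so the groups overlapped. CIITA, the class II transactivator related to NLRC5, had 0.198 to 0.336 TPM in NEN and 0.190 to 0.309 TPM in DMSO libraries.

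Of 10 interferon receptor and signalling genes, 8 were tested and 0 were called by limma (30.0% of all genes were called). IFNGR1 and SOCS3 had an unadjusted p under 0.05 in limma. IFNGR1, the ligand-binding chain of the interferon gamma receptor, had 16.0, 14.0 and 16.5 TPM in the NEN libraries, against 12.9, 13.5 and 10.5 TPM in the DMSO libraries (log2 fold change 0.32 ± 0.12, adjusted p = 0.0983). IFNGR2, its signalling chain, had 34.2 ± 2.2 TPM in NEN and 29.2 ± 3.8 TPM in DMSO cells, and the kinase TYK2 had 46.7 ± 4.5 TPM in NEN and 43.2 ± 6.9 TPM in DMSO cells. The count became 1 without NEN replicate 1, which brought in IFNAR1 (0.48), and 1 without DMSO replicate 1, which brought in IFNGR2 (0.32). The median of the list was 0.17.

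Among 12 ligands that natural killer and T cells read on a target cell, 7 were tested, with a median of 0.08. Of these 1 rose and 1 fell (30.0% of all genes were called). CD47, which signals to macrophages, had 83.2, 78.5 and 81.7 TPM in the NEN libraries, against 118.9, 112.4 and 108.5 TPM in the DMSO libraries, and fell by 0.48 ± 0.06 (limma adjusted p = 0.00177). PVRL2, also called nectin-2, a ligand of DNAM-1, rose to 50.5 ± 1.9 TPM in NEN cells, against 40.7 ± 2.4 TPM in DMSO cells (limma adjusted p = 0.0192). Leaving out 1 library ended this call for NEN replicate 1 (0.31), NEN replicate 2 (0.28) or DMSO replicate 2 (0.28). MICA, a stress ligand encoded beside HLA-B, was listed at 0 in every library. CD274, which encodes PD-L1, had 0.866, 0.0367 and 0.0172 TPM in the NEN libraries, against 0.0210, 0.384 and 0.150 TPM in the DMSO libraries.

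**Figure D4:**
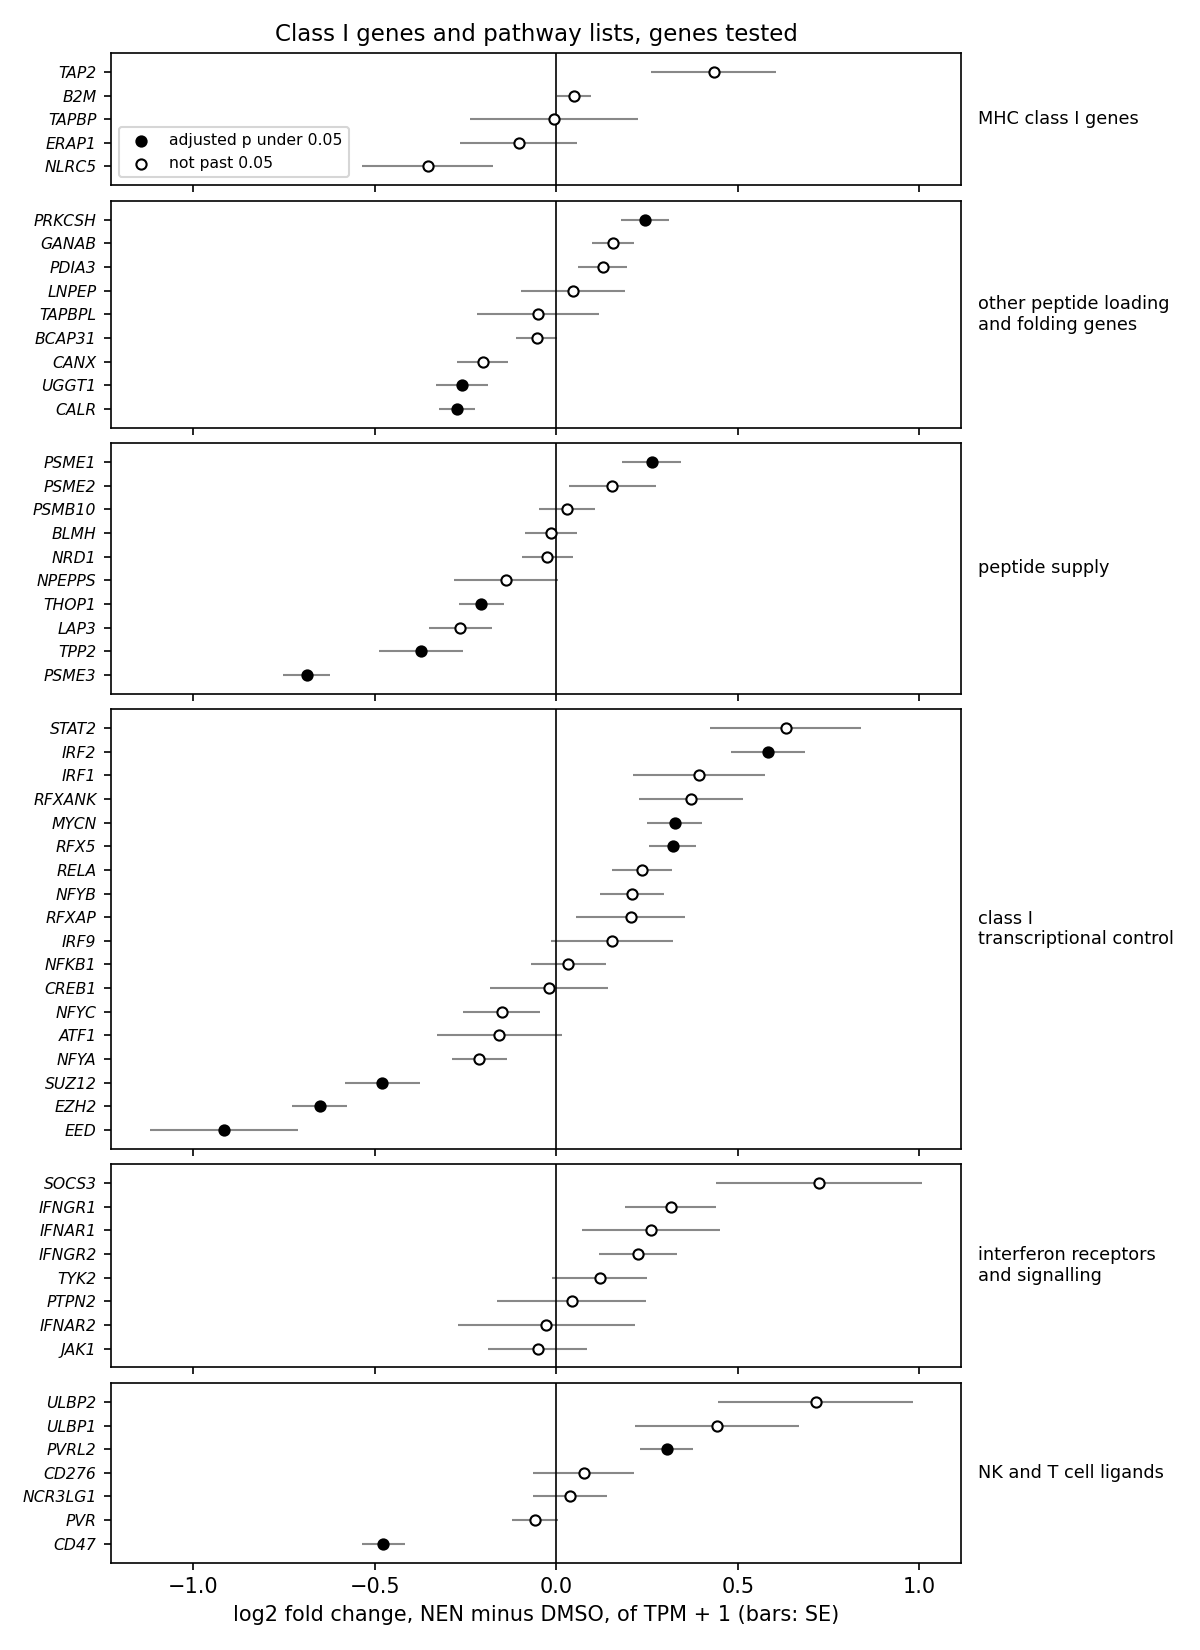
The log2 fold change, NEN minus DMSO, of log2(TPM + 1) for the tested genes of the class I set and of 5 pathway lists (1 gene is not shown), with SE bars; filled points passed an adjusted p of 0.05 in limma. All 5 class I genes are open points, and the filled points farthest from 0 are EED, PSME3 and EZH2 on the left and IRF2 on the right.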

How the data were processed

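The 6 RNA-seq libraries of SK-N-BE(2) were grouped by the treatment in the labels. Per the submitters' processing notes, kallisto produced the abundances and hg19 is the build, with versions not given in the sources used here. Per the labels' protocols, RNA was extracted with Trizol, and either polyA capture or rRNA removal is named. The deposited values are TPM per gene name, from which log2(TPM + 1) was computed here. The 12576 genes averaging 1 TPM or more were fitted in limma 3.58.1 (R 4.3.3; group alone, trend and robust settings), with two-sided p-values adjusted by Benjamini-Hochberg over these genes and called at 0.05. Fold changes on this scale understate the change of low genes. The p-values set the difference between groups against the spread of these libraries within groups, moderated across genes. The genes and lists were chosen with earlier results of these data known. Named are the 9 class I genes, MYCN, NFYA, RFX5 and IRF1, and in each list the called genes (the 4 of smallest adjusted p where more were called) or, with none called, the 2 of highest level. EED, HAND2, ISL1, PPP1R11, VARS2, RPS18, TUBB, IFNGR1, IFNAR1, SOCS3 and the list genes under the filter were named after their values were seen. Further heavy chain genes were not analysed here, and 2 list genes that the rule takes stay in the counts but are not reported here. Promoter windows are RefSeq's, on GRCh38.p14, and matched 7 of the 9 genes; no coordinate was converted between builds. The limma test was checked on simulated data with independent normal noise and far fewer changed genes than were called here. Changes were simulated only in genes above a set level, so the check does not cover changes in genes as low as NLRC5. Alternatives were other pseudocounts, filters, scalings and limma settings, a replicate block and leaving out each library. Figures were drawn with matplotlib 3.10.9.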

Additional observations from a re-analysis of the deposited data

How the results depend on the processing

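In limma, 0 class I genes were called under each alternative tried: pseudocounts of 0.1 and 5, no filter, a minimum of 5 TPM (which removes NLRC5), median-ratio scaling, quantile normalization, plain settings, the replicate block and leaving out each library. The lowest adjusted p among them was 0.0544, for NLRC5, and the lowest for TAP2 was 0.0780. TAPBP, which is not called, ranged from -0.15 without DMSO replicate 2 to 0.23 without NEN replicate 1. Leaving out single libraries moved the genes called higher in NEN, 1699 in all, to between 1063 and 1554 (1063 without NEN replicate 1), and the called genes of the 8 other lists that were lower in NEN, 10 in all, to between 6 and 9 (6 without DMSO replicate 3). With the replicate block, 1328 genes were called higher and 1649 lower, and the calls of UGGT1, PRKCSH, PSME1, THOP1, PVRL2 and ISL1 were lost. Libraries with the same number had correlations of their deviations from the group means of 0.01, -0.01 and -0.03, so the numbers were not taken as pairs. Median-ratio scaling and quantile normalization ended the calls of UGGT1, TPP2 and THOP1, no filter those of UGGT1, PRKCSH, PSME1, TPP2, THOP1 and ISL1, and plain settings those of PRKCSH, PSME1, TPP2, THOP1, MYCN and ISL1. Calls were also gained: genes of the 8 other lists called higher in NEN, 13 in all, became 16 with median-ratio scaling and 17 with quantile normalization. Those called lower, 10 in all, became 7 with each. In the class I transcriptional control list, the risers went from 3 to 5 with each. The unknown depth limits what can be said of HLA-B, HLA-C, HLA-E and TAP1.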
